A study of Mus musculus with 3 samples.

Results

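The barcodes described here are the deeply sequenced barcodes of a wild-type mouse intestinal organoid library, split by the share of their RNA that came from the mitochondrial genome. Barcodes mark droplets, most of them with a single cell inside, and a unique molecular identifier (UMI) tags 1 captured RNA molecule. Members were chosen by 3 criteria: the barcode string occurred in the WT library and in neither of the other libraries, the barcode held at least 10000 UMIs, and the share of UMIs from the 13 mt- genes was over 20% (high-mt) or at most 20% (low-mt). Of 11411 WT barcodes, 8100 occurred in WT alone and 1635 of these reached 10000 UMIs. The split gave 427 high-mt and 1208 low-mt barcodes, so that 26.1% of the deep WT-only barcodes (24 to 28.3%, exact Clopper-Pearson interval at the 95% level) were over the limit. The whole series held 34185 barcodes. Since the mitochondrial share defined the groups and both come from the same barcodes of 1 library, every difference between them is a description without a test, and all intervals cover counting error only.

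The study grew organoids, small hollow bodies of epithelial cells, from the small intestine of C57BL/6 mice that had received 2 doses of tamoxifen (2 mg) at 7 to 8 weeks of age. WT stands for wild type. LApc mice carried Lgr5-CreERT2, in full Lgr5-EGFP-IRES-CreERT2, and Apc fl/fl, and LApcL mice carried Lef1 fl/fl in addition to both. The Lgr5 promoter drives the tamoxifen-activated Cre in intestinal stem cells. Analysis followed at day 21 in WT and LApcL and at day 29 in LApc. At passage 3, on culture day 6, the organoids were taken apart with trypsin for 40 min and passed through a 20 μm mesh, and 1 droplet library was made per genotype, so that culture, dissociation and genotype cannot be told apart.

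The mitochondrial genome encodes subunits of the respiratory chain and of ATP synthase, and all the other subunits come from nuclear genes. A high mitochondrial share of UMIs is commonly read as a sign of a damaged cell that has lost cytoplasmic RNA, while some cell types are rich in mitochondria by nature. The study left out cells over 20%, so the high-mt barcodes are ones its filter would remove. To compare the rest of the transcriptome, mt- genes were removed before levels were scaled to CPM (counts per 1000000 non-mitochondrial UMIs), and log2 ratios are log2 of (high-mt CPM + 1) against (low-mt CPM + 1).

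The mitochondrial share of the high-mt barcodes ran from 20.0 to 94.4%, with a median of 37.3% and quartiles of 26.5 and 48.0%. Low-mt barcodes ran from 0.0365 to 19.9%, with a median of 10.5% and quartiles of 8.67 and 12.7%. Depth moved with the split. High-mt barcodes had a median of 13036 UMIs, of which 8159 were not mitochondrial, and low-mt barcodes had 38073.5 and 34265.5. Among barcodes of 10000 to 20000 UMIs, 352 of 473 were high-mt (74.4%, 70.2 to 78.3%), against 75 of 1162 (6.45%, 5.11 to 8.02%) at 20000 UMIs and over. Any contrast between the groups is therefore also a contrast in depth. Values within a narrower range of depth are given for part of the lists, and the other lists are given at all depths only.

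**Figure D1:**
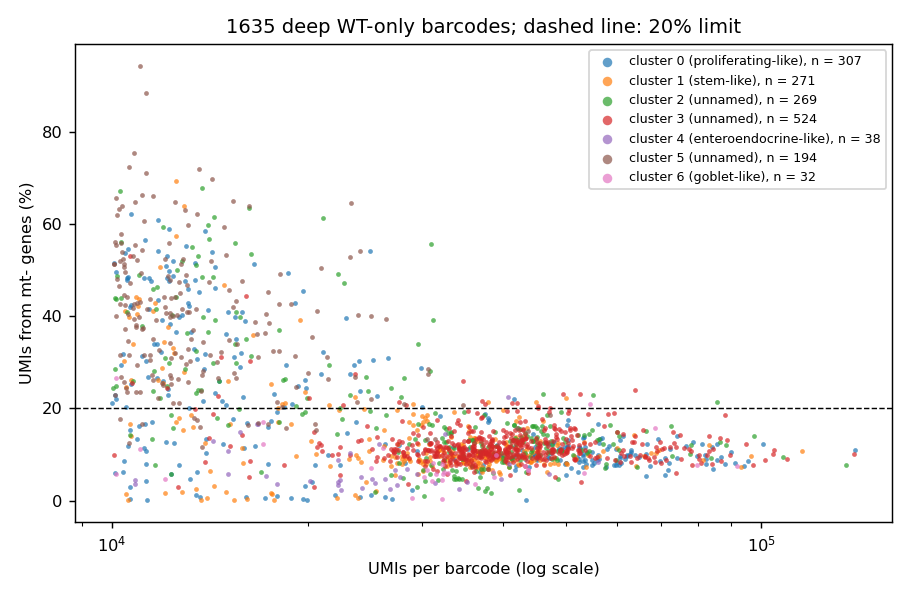
Each point is 1 of the 1635 deep WT-only barcodes, with its UMIs on a log axis and the percentage of UMIs from mt- genes on the other; colours mark clusters made without mt- genes. The 427 barcodes above the dashed 20% line lie mainly below 20000 UMIs, and the low-mt barcodes form a dense band near 10% at over 20000 UMIs.

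The low-mt summed profile held 43661997 non-mitochondrial UMIs and the high-mt profile 4444667. A level of 10 CPM in either group was required, which 8626 genes met. Of these, 1127 were at least 2-fold higher in high-mt barcodes, or 13.1% of the genes tested, and 271 were at least 2-fold lower, or 3.14%. The median log2 ratio over all tested genes was 0.28, and 65.1% of genes lay above 0. Of the genes past 2-fold, 80.6% were thus higher, a share that was 40.1% after median-of-ratios scaling, which sets the median of all genes to 0 (480 higher and 716 lower), and 90.7% when 4 loci that overlap ribosomal RNA were kept out of the total. Within 10000 to 20000 UMIs, with 352 high-mt and 121 low-mt barcodes, 951 genes were higher and 572 lower. List values below are best read against the all-gene median of 0.28, and medians between 0 and 0.28 turn below 0 under median-of-ratios scaling.

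The 12 genes with the highest ratios among those with at least 50 CPM were Gm10800, Gm26917, Rmrp, Hist1h4c, Gm42418, Lars2, Hist2h4, Hist4h4, Hist2h2bb, 2900060B14Rik, Firre and Clec2d. Their log2 ratios ran from 3.56 (3.32 to 3.79) for Gm10800 down to 2.32 (2.18 to 2.47) for Clec2d. Of the 12, 9 met the 50 CPM limit through the high-mt group alone. Rmrp, the RNA component of the RNA-processing enzyme RNase MRP, stood at 37.5 CPM in low-mt and 401 CPM in high-mt barcodes. Firre, a long noncoding RNA of the nucleus, stood at 10.2 and 56.0 CPM. After every barcode was thinned to 2000 non-mitochondrial UMIs, 46.1% of 425 high-mt barcodes had at least 1 Rmrp UMI against 7.20% of low-mt barcodes.

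Gm42418 and Gm26917 were the most abundant of these. In GENCODE vM21 on GRCm38 (mm10) both lie on the forward strand of chromosome 17, Gm26917 at 39843013 to 39846341 and Gm42418 at 39846958 to 39848788, over sequence related to ribosomal RNA. AY036118 lies inside Gm42418 on the opposite strand, at 39847113 to 39848035, and Lars2, which encodes the mitochondrial leucyl-tRNA synthetase, on chromosome 9 at 123366927 to 123462666. How reads were shared between the overlapping loci is not given in the sources used here, so the single values are uncertain. Gm42418 stood at 7755 CPM in low-mt and 55537 CPM in high-mt barcodes, and Gm26917 at 3655 and 41202 CPM. Lars2 was 7.01-fold higher and AY036118 3.66-fold. Together the 4 loci took 1.21% of low-mt and 10.04% of high-mt non-mitochondrial UMIs. Per barcode, their share had a median of 0.742% (quartiles 0.545 and 1.35%) in low-mt barcodes and 9.81% (4.88 and 18.0%) in high-mt barcodes.

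These loci also moved with depth. In low-mt barcodes alone, those of 10000 to 20000 UMIs had Gm26917 at 29308 CPM, against 2710 CPM in those of 20000 UMIs and over. Within 10000 to 20000 UMIs the median log2 ratio of the 4 loci between high-mt and low-mt barcodes was 0.87, and with all depths it was 2.82. At 20000 UMIs and over it was 2.39. A like pattern held for replication-dependent histone genes, whose messages normally lack a poly(A) tail and which are near-identical to one another, so that their counts are uncertain. Of 62 measured, 58 were higher in high-mt barcodes, 35 of the 45 tested by at least 2-fold, with a median of 1.48. Within 10000 to 20000 UMIs the median was 0.09, and between shallow and deep low-mt barcodes it was 2.32. Hist1h4c stood at 11.1 CPM in low-mt and 95.6 CPM in high-mt barcodes, and at 83.8 CPM in the shallow low-mt barcodes.

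RNAs held in the nucleus were higher in high-mt barcodes at every depth examined. Of 7 measured RNAs known to be retained in the nucleus, 6 were higher, 4 of them by at least 2-fold, with a median of 1.16. Malat1, a noncoding RNA of nuclear speckles, stood at 6328 CPM (6305 to 6352, exact Poisson interval) in low-mt and 14978 CPM (14865 to 15092) in high-mt barcodes. Neat1, the scaffold of paraspeckles, stood at 693 and 1790 CPM. The messenger RNAs of Mlxipl, the glucose-sensing factor ChREBP, and Chka, a choline kinase, were 3.06-fold and 2.24-fold higher. Kcnq1ot1, an imprinted noncoding RNA, was the exception, at 14.3 and 8.77 CPM. The median log2 ratio of the list was 0.91 within 10000 to 20000 UMIs and 0.85 at 20000 UMIs and over, and it was 0.35 between shallow and deep low-mt barcodes.

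Single barcodes gave the same direction for Malat1. The median barcode held 5541 CPM of Malat1 in the low-mt and 14362 CPM in the high-mt group, and the third quartile of the low-mt group, 8558 CPM, lay below the first quartile of the high-mt group, 9295 CPM. After thinning to 2000 UMIs, the area under the curve was 0.842 for Malat1, 0.734 for Neat1 and 0.952 for Gm42418. This area is the share of high-mt and low-mt pairs in which the high-mt barcode has more, with a tie counted as 0.5. A value of 0.5 means that neither group ranked higher on balance. For Krt8, a keratin of all intestinal epithelial cells, it was 0.506.

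Genes of splicing regulation, many of which keep introns or reside in nuclear speckles, formed a further high group. Of 14 measured, 13 were higher and 6 by at least 2-fold, with a median of 0.93 and no member lower by 2-fold. Ankrd11, a chromatin regulator, stood at 300 and 884 CPM, Son, a speckle scaffold, at 215 and 541 CPM, and the splicing kinases Clk1 at 79.8 and 190 CPM and Prpf4b at 138 and 349 CPM. Ddx5, an RNA helicase, differed little, at 562 and 547 CPM. Long noncoding genes other than the 4 ribosomal RNA loci took 1.77% of low-mt and 2.88% of high-mt UMIs, and 48 of 198 tested (24.2%) were at least 2-fold higher.

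Genes for the translation machinery were lower in high-mt barcodes. Of 79 cytosolic ribosomal protein genes, 74 were lower and 5 higher, with a median log2 ratio of -0.58. By at least 2-fold, 9 were lower, against 271 of the 8626 genes tested. Their summed share was 29.6% of low-mt and 20.5% of high-mt UMIs. Per barcode it had a median of 31.2% (quartiles 25.6 and 35.03%) in low-mt and 16.6% (10.5 and 25.2%) in high-mt barcodes. The lowest member was Rpl10, at 2657 and 1074 CPM, followed by Rpl36a, Rps15a and Rpl9. The highest were Rpl36, at 2535 and 4148 CPM, and Rpsa, at 3861 and 5418 CPM, so members of the same ribosome differed in direction. Many ribosomal protein genes have processed pseudogenes that can take reads, which leaves single values uncertain. Of 11 translation factors, 8 were lower, with a median of -0.70. Eef1a1, which delivers aminoacyl-tRNA to the ribosome, stood at 9087 and 5547 CPM, and Eef1b2, its exchange factor, at 3314 and 1506 CPM. Eef2, the translocation factor, went the other way, at 1594 and 2041 CPM.

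Nuclear genes for the respiratory chain were lower in the barcodes that were rich in mitochondrially encoded RNA. Of 77 nuclear oxidative phosphorylation genes, 67 were lower and 10 higher, with a median of -0.63, and 13 were lower by at least 2-fold. Cox5a, a subunit of cytochrome c oxidase, stood at 1035 CPM (1025 to 1044) in low-mt and 396 CPM (378 to 415) in high-mt barcodes. Cox8a, of the same complex, stood at 2149 and 859 CPM, Ndufa8 of complex I at 292 and 113 CPM, and Uqcrb of complex III at 551 and 241 CPM. Ndufb7, at 276 and 338 CPM, and Uqcrc1, at 261 and 325 CPM, were among the few that were higher. The mt- transcripts, which the groups were chosen on, amounted to 11.99% of the non-mitochondrial UMIs in low-mt and 55.4% in high-mt barcodes.

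Composition of the mitochondrial UMIs, which the split did not use, was nearly the same in both groups. mt-Co3 made up 17.9% of mt- UMIs in low-mt and 17.3% in high-mt barcodes, mt-Atp6 17.5 and 17.3%, mt-Co1 14.7 and 16.2% and mt-Cytb 10.6 and 9.86%. The log2 ratio of the share was between -0.11 and 0.20 for 11 of the 13 genes. mt-Nd5 (1.33 and 1.96%) and mt-Atp8 (0.364 and 0.514%) had ratios of 0.55 and 0.50.

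Other nuclear genes for mitochondrial proteins followed the respiratory chain in part. Of 77 mitochondrial ribosomal protein genes, 70 were lower, 12 of them by at least 2-fold, with a median of -0.61, led by Mrpl34 at 248 and 86.4 CPM. Of 11 carriers, pores and import channels, 9 were lower, with a median of -0.81. Vdac3, a pore of the outer membrane, stood at 158 and 72.4 CPM, Tomm20, an import receptor, at 585 and 275 CPM, and Slc25a5, an ADP/ATP carrier, at 913 and 470 CPM. The 8 chaperones and proteases divided, with a median of 0.06. The chaperonin pair Hspd1 and Hspe1 stood at 524 and 316 CPM and at 565 and 264 CPM, while the matrix protease Lonp1 was 2.80-fold higher, at 58.4 and 163 CPM. Among 10 genes of mitochondrial DNA upkeep and transcription the polymerase Polg (18.1 and 42.3 CPM) and the helicase Twnk (11.6 and 26.8 CPM) were over 2-fold higher, and Tfam, which packs and transcribes mitochondrial DNA, stood at 59.6 and 42.7 CPM. The tricarboxylic acid cycle list, with 8 of 11 genes lower, had a median of -0.32, and the lists of fatty acid oxidation (0.03) and mitochondrial dynamics and mitophagy (0.01, or 0.11 with 1 gene at 0 UMIs set to 3 UMIs) had medians near 0. These medians lay below the all-gene value in the full groups. Over the 17 alternatives the fatty acid oxidation median ran from -0.26 to 0.29 and kept its direction in 13.

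**Figure D2:**
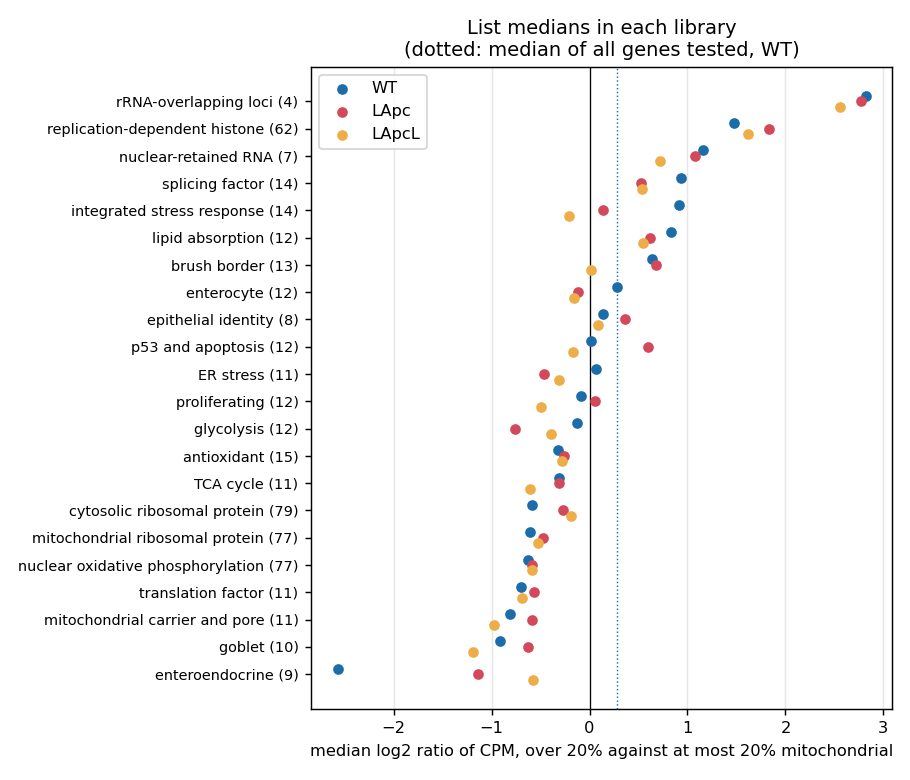
Median log2 ratio of CPM between barcodes over 20% and at most 20% mitochondrial for 22 gene lists in WT, LApc and LApcL, with the number of members measured in WT in brackets. The dotted line is the median of all genes tested in WT (0.28), and the order runs from the 4 ribosomal RNA loci at 2.82 in WT to enteroendocrine genes at -2.57.

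Transcript length moved with the ratio across all genes. By the longest GENCODE transcript, the 424 tested genes of 500 to 1000 bases had a median log2 ratio of -0.60, the 1418 of 1000 to 2000 bases -0.26, the 2968 of 3000 to 5000 bases 0.40 and the 512 of 8000 bases and over 0.71. Of this last class, 29.1% were at least 2-fold higher and 0.195% were at least 2-fold lower. Spearman's rho across 8623 genes was 0.482, where genes are not independent replicates and share the same libraries. Many ribosomal and respiratory genes are short. Among tested genes under 2000 bases, 1722 genes outside these lists had a median of -0.29, against -0.57 for 66 cytosolic ribosomal protein genes, -0.64 for 60 respiratory genes and -0.64 for 40 mitochondrial ribosomal protein genes. At least 2-fold lower were 9.09% of these cytosolic ribosomal protein genes, near the 9.58% of the genes outside these lists. The shares were 16.7% for the respiratory and 22.5% for the mitochondrial ribosomal protein genes. In LApc and LApcL the cytosolic ribosomal protein genes under 2000 bases had medians of -0.25 and -0.17, above the -0.49 and -0.50 of the genes outside these lists. The part of length in the list medians was not tested further.

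**Figure D3:**
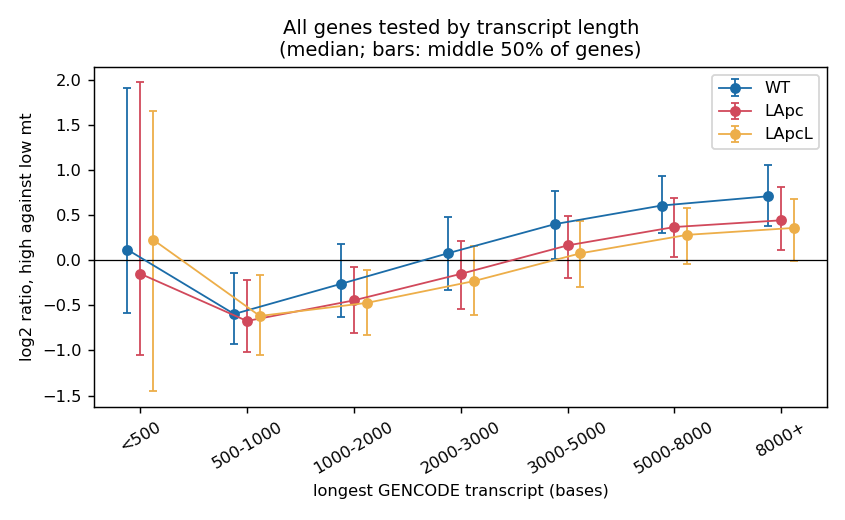
Log2 ratio of high-mt against low-mt CPM for all genes tested, in 7 classes of longest transcript length; points are medians and bars the middle 50% of genes. From 500 bases upward the median increases in every class in WT (-0.60 to 0.71), LApc (-0.67 to 0.44) and LApcL (-0.62 to 0.36).

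Genes of the integrated stress response were higher in high-mt WT barcodes. This response slows translation initiation and favours translation of Atf4, a transcription factor that induces genes of amino acid supply, redox balance and, when prolonged, cell death. Of 14 measured genes, 11 were higher and 7 by at least 2-fold, with a median of 0.92 and no member lower by 2-fold. The median stayed above 0 in all 17 alternatives, from 0.13 with a mitochondrial limit of 10% to 1.15 with a limit of 30%. It was 0.24 with both groups weighted to the low group's mix of the clusters with at least 15 barcodes of each group. Atf4 stood at 272 CPM (267 to 277) in low-mt and 613 CPM (591 to 637) in high-mt barcodes, and Ddit3, the CHOP factor downstream of it, at 137 and 342 CPM. Trib3, a pseudokinase, stood at 30.3 and 76.0 CPM, Chac1, which degrades glutathione, at 33.4 and 74.9 CPM, Slc7a11, the cystine transporter, at 26.6 and 54.7 CPM, Sesn2, a nutrient-sensing regulator, at 12.3 and 29.0 CPM and Vldlr, a lipoprotein receptor, at 29.2 and 73.8 CPM. The genes of serine and asparagine synthesis showed no such difference, with Asns at 96.9 and 97.4 CPM, Psat1 at 51.5 and 46.1 CPM and Phgdh at 78.1 and 59.8 CPM.

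The list is shown with upstream sequence because several members were higher together. The 250 bases before the start of each gene, from RefSeq promoters on GRCm38.p6, were searched on both strands for the letters TGATGNAA, the core of the element bound by C/EBP and ATF factors. All 14 genes had a promoter entry and 5 held a match (35.7%), against 1056 of 27025 genes (3.91%). The list was drawn up from genes of this response, so the share describes the list and not these barcodes. Stretches around the matches are given 5′ to 3′ on the strand of the gene, with the matched letters in capitals.
Chac1, chr2:119351029-119351076, forward strand: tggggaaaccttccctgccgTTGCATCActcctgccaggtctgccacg
Slc7a11, chr3:50443633-50443699, reverse strand: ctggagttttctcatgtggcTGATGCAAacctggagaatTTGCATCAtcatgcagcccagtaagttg
Vldlr, chr19:27216800-27216847, forward strand: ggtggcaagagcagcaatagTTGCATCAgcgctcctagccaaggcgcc
Asns, chr6:7693210-7693252, reverse strand: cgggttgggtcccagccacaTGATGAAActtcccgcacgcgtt
Nupr1, chr7:126625553-126625600, reverse strand: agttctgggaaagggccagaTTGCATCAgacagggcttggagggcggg
Chac1, Slc7a11 and Vldlr were over 2-fold higher in high-mt barcodes, whereas Asns and Nupr1 (208 and 225 CPM) were not, so a match in this window did not sort the genes by their ratio. A match is a description of these letters and not of binding.

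**Figure D4:**
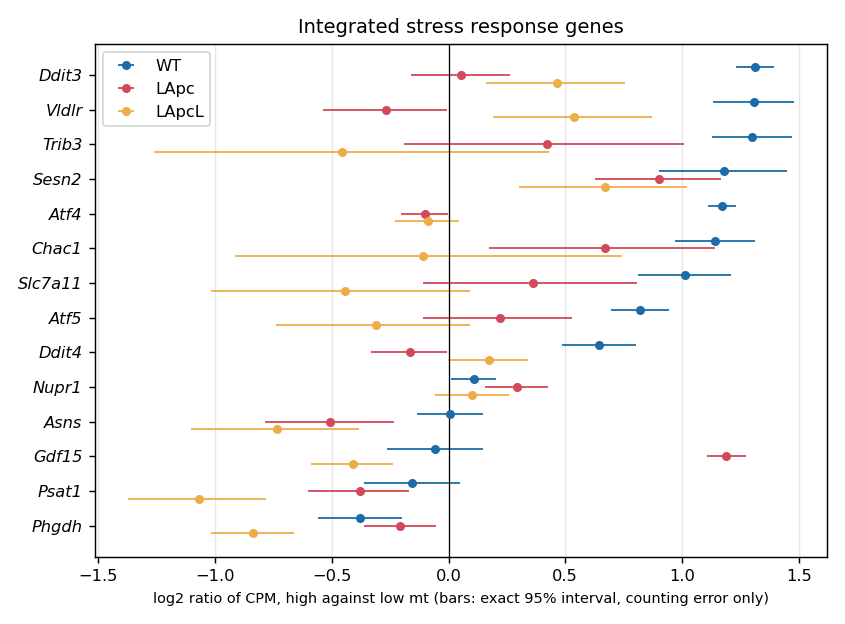
Log2 ratio of high-mt against low-mt CPM for 14 integrated stress response genes in WT, LApc and LApcL; bars are exact 95% intervals for counting error only. In WT 7 genes lie past 1, from Slc7a11 at 1.01 to Ddit3 and Vldlr at 1.31, while Atf4 stands at -0.10 in LApc and -0.09 in LApcL.

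Related stress lists differed in their medians. The 11 endoplasmic reticulum stress genes had a median of 0.06, with the chaperone Hspa5 at 438 and 558 CPM but Manf, a secreted stress protein, at 149 and 66.4 CPM, and with Sdf2l1 also over 2-fold lower. Of 9 cytosolic heat shock genes 6 were lower, with a median of -0.15. The 12 genes of p53 and apoptosis split evenly, 6 higher and 6 lower, with a median of 0.01 and none past 2-fold. Within 10000 to 20000 UMIs 8 were higher and 4 lower, with a median of 0.50, and the direction held in 11 of 17 alternatives. Immediate early genes had a median of 0.14, and of 14 only the phosphatase Dusp1 passed 2-fold, at 107 and 218 CPM, while the AP-1 subunit Jun stood at 1441 and 2383 CPM. Within 10000 to 20000 UMIs 13 of the 14 were higher, with a median of 0.60, near the 0.51 of the integrated stress response list there. Among 15 antioxidant genes (median -0.32) the enzymes divided: Sod1, the cytosolic superoxide dismutase, stood at 181 and 421 CPM and Gpx4, which reduces lipid peroxides, at 594 and 1021 CPM, against Prdx1, a peroxiredoxin, at 881 and 421 CPM and Sod2, the mitochondrial dismutase, at 194 and 108 CPM.

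Enterocyte genes moved in both directions. The list of 12 absorptive cell markers had a median of 0.28, equal to that of all genes, with 8 higher and 4 lower, and it turned to -0.015 under median-of-ratios scaling. Fabp1, a fatty acid binding protein, stood at 10232 CPM (10202 to 10262) in low-mt and 5258 CPM (5191 to 5326) in high-mt barcodes. Genes for lipoprotein assembly and fat absorption were higher in 10 of 12 cases, 4 of the 11 tested by at least 2-fold, with a median of 0.83, while Fabp1, also a member, was the lowest, and the summed level of the list went from 13504 to 10359 CPM. Apob, the backbone of chylomicrons, stood at 406 and 940 CPM, Apoa1 at 435 and 881 CPM, Dgat1, which completes triglyceride synthesis, at 157 and 358 CPM and the fatty acid transporter Slc27a4 at 29.2 and 62.8 CPM. Brush border genes were higher in 11 of 13 cases, 5 by at least 2-fold, with a median of 0.64. They included the microvillus cadherin Cdhr2 (53.4 and 170 CPM), the alkaline phosphatase Alpi (63.1 and 171 CPM), lactase, Lct (16.2 and 44.1 CPM), and villin, Vil1 (246 and 522 CPM).

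Single barcodes showed how uneven Fabp1 was. Its median barcode held 924 CPM in the low-mt and 1687 CPM in the high-mt group, the opposite order to the summed level, and its area under the curve was 0.501. Apob, with 294 and 811 CPM in the median barcode and an area of 0.671, kept the order of its sum.

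In the full groups, all 9 enteroendocrine genes were lower, including all 8 that reached 10 CPM and so were tested, each by at least 2-fold, with a median of -2.57, or -2.87 with the gene at 0 UMIs in 1 group set to 3 UMIs. The median depended on depth and on few cells: it was -6.22 within 10000 to 20000 UMIs, -1.22 at 20000 UMIs and over, and 0.53 without the enteroendocrine-like and goblet-like clusters. The 12 lowest genes among those with at least 50 CPM in 1 of the groups were Gcg, Nts, Gip, Ghrl, Chgb, Tac1, Cck, Zg16, Spp2, Olfm4, Sumo2 and Psma5, and 7 of these encode gut hormones or a granule protein of hormone cells. Of the 12, only Cck and Sumo2 reached 50 CPM in high-mt barcodes, and the others met the limit through the low-mt group alone. Gcg, the proglucagon gene, stood at 425 CPM in low-mt barcodes and at 2.92 CPM, from 13 UMIs, in high-mt barcodes, and its log2 ratio turned to 0.83 without those clusters. Cck, cholecystokinin, stood at 786 and 197 CPM. These sums rest on few barcodes: after thinning, 1.66% of low-mt and 1.41% of high-mt barcodes had a Gcg UMI. All 10 goblet genes were below 0 (median -0.91, or -0.89 with the gene at 0 UMIs set to 3 UMIs), 1 of the 6 tested past 2-fold, with Tff3, a mucus peptide, at 613 and 339 CPM, and of 7 Paneth genes 5 were lower, with Itln1 at 164 and 70.2 CPM and Defa24, which has near-identical relatives, at 59.6 and 26.3 CPM. Over the 17 alternatives, which keep the members measured in the full groups, the goblet median ran from -2.89 to 0.32 and the Paneth median from -2.17 to 1.02, each keeping its direction in 15. The goblet median was -3.59 over 6 measured genes within 10000 to 20000 UMIs and 0.04 at 20000 UMIs and over. The Paneth median of -0.36 was -2.48 over 6 measured genes and -0.56 in the same ranges of depth.

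Crypt lists had medians that changed with depth. The 8 stem cell genes had a median of -0.21, with Lgr5 at 15.6 and 13.5 CPM and Olfm4, which marks crypt base columnar cells, at 80.7 and 24.97 CPM. The median was 0.17 over 6 measured genes within 10000 to 20000 UMIs and -0.59 at 20000 UMIs and over. The 12 proliferation genes had a median of -0.08, within which Mki67 was over 2-fold higher, at 92.4 and 256 CPM, and Cks2, a short mitotic gene, over 2-fold lower, at 112 and 53.8 CPM. In the same ranges of depth the proliferation median was -0.61 and -0.31. Sumo2, a ubiquitin-like modifier, stood at 209 and 67.3 CPM and the proteasome subunit Psma5 at 152 and 48.8 CPM. Glycolysis (-0.13), actin cytoskeleton (-0.29), metallothionein (-0.29) and villus bottom (-0.51) lists had medians below 0, and interferon and antigen presentation (0.25) and villus tip (0.46, or 0.71 with genes at 0 UMIs set to 3 UMIs) lists above 0.

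Both groups carried the epithelial label of their library. The 8 epithelial identity genes had a median of 0.13, with Epcam at 1335 and 1078 CPM and Krt8 at 1271 and 1287 CPM. Markers of other cell types were near absent. The summed level of 7 endothelial genes was 5.54 CPM in low-mt and 4.95 CPM in high-mt barcodes, and of 6 immune genes 1.26 and 1.57 CPM, with Ptprc, the pan-leukocyte marker, at 0 UMIs in both groups. The 6 fibroblast genes summed to 1.97 and 4.27 CPM, nearly all from Col1a2, with Col3a1 and Dcn at 0 UMIs. The 5 erythroid genes summed to 1.56 and 1.35 CPM and the 7 tuft cell genes to 2.86 and 2.02 CPM.

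Levels were also followed across bins of the mitochondrial share. On either side of the limit, 154 barcodes of 15 to 20% and 85 barcodes of 20 to 25% had Malat1 at 8153 and 10559 CPM, Atf4 at 321 and 417 CPM, Cox5a at 922 and 684 CPM, and cytosolic ribosomal protein genes at 27.6 and 25.7% of UMIs. The ribosomal RNA loci differed more, at 2.63 and 6.47% of UMIs, with Gm42418 at 14206 and 40120 CPM, and Rmrp stood at 96.1 and 197 CPM. Their medians were 34245 and 19229 UMIs. From the bin of 10 to 15% to the bin of 25 to 30%, Cox5a went from 1119 to 288 CPM and Malat1 from 6523 to 15053 CPM. Over 50% (87 barcodes), Malat1 stood at 23948 CPM, Atf4 at 889 CPM and cytosolic ribosomal protein genes at 13.7%. Fabp1 was highest at 10 to 15%, with 13699 CPM, and lowest at 40 to 50%, with 2251 CPM. The 87 barcodes of 0 to 5% did not continue every trend: Malat1 stood at 8075 CPM there, against 5457 CPM at 5 to 10%.

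**Figure D5:**
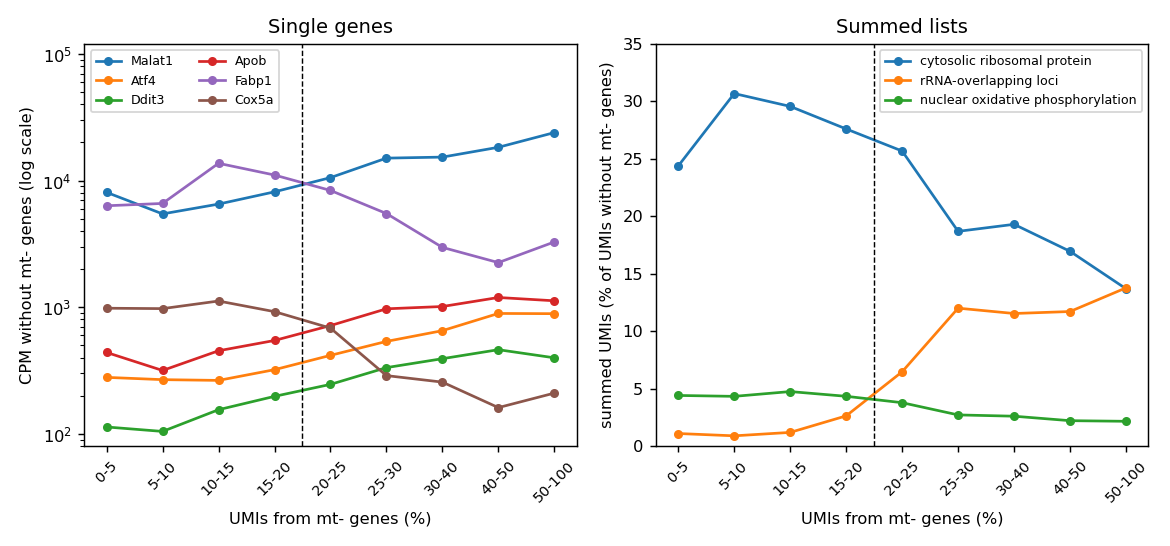
Summed levels in 9 bins of the mitochondrial share of deep WT-only barcodes, for single genes as CPM on a log axis and for lists as a percentage of non-mitochondrial UMIs; the dashed line marks 20%. Malat1, Atf4, Ddit3 and Apob increase from 10% to 40% or beyond. Cox5a and the ribosomal protein share decrease from 10% to 30%, beyond which each has a step up. The ribosomal RNA loci climb from 2.63% at 15 to 20% to 12% at 25 to 30%.

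Clusters made without mt- genes separated the groups unevenly. Of 7 clusters, 4 carried names from at least 3 markers, and the others are given by number and leading genes. High-mt barcodes made up 176 of 194 (90.7%) in cluster 5, which was led by Gm10800, Gm26917 and Rmrp and had a median of 12562 UMIs, and this cluster held 41.2% of all high-mt barcodes. They made up 107 of 307 (34.9%) in the proliferating-like cluster 0, 79 of 269 (29.4%) in cluster 2, led by Cyp2c29, Tmigd1 and Dpep1, and 39 of 271 (14.4%) in the stem-like cluster 1. They were 23 of 524 (4.39%) in cluster 3, led by Ctrb1 and Acta1, 1 of 38 in the enteroendocrine-like and 2 of 32 in the goblet-like cluster. Since the clusters were built from the same genes that are compared, their shares are a description only.

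Within clusters the direction of the main groups was largely retained. In the proliferating-like cluster Malat1 stood at 3718 CPM in low-mt and 10985 CPM in high-mt barcodes, and Cox5a at 931 and 216 CPM. In cluster 2 Malat1 stood at 8758 and 22506 CPM, Cox5a at 1288 and 456 CPM and Ddit3 at 320 and 655 CPM. The stem-like cluster had smaller differences, with Malat1 at 4150 and 7015 CPM, and its median of nuclear oxidative phosphorylation genes was -0.36, against -0.83 and -0.62 in clusters 0 and 2. In cluster 3, whose 23 high-mt barcodes had a median of 28398 UMIs, that median was 0.05 and Cox5a stood at 1156 and 1132 CPM. Fabp1 differed in direction between clusters, at 24109 and 8850 CPM in cluster 2 but 2209 and 3498 CPM in the stem-like cluster. The integrated stress response list had medians of 0.76, 0.33, 0.64, 0.09 and 0.60 in clusters 0, 1, 2, 3 and 5.

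Restricting total UMIs narrowed the gap in depth but did not match non-mitochondrial UMIs, on which CPM rests. Within 10000 to 20000 UMIs, where medians were 12335.5 UMIs in high-mt and 13941 UMIs in low-mt barcodes, the medians were -0.69 for cytosolic ribosomal protein, -0.63 for nuclear oxidative phosphorylation, 0.97 for lipid absorption, 0.74 for splicing and 0.51 for integrated stress response genes, with 0.25 for all genes. At 20000 UMIs and over, with 75 high-mt and 1087 low-mt barcodes, the first and second of these were -0.31 and -0.28, and the stress list stood at 0.38. Ddit3 stood at 110 CPM in low-mt and 373 CPM in high-mt barcodes of 10000 to 20000 UMIs, and Atf4 at 375 and 704 CPM. The shallow low-mt barcodes had a median of 0.46 for the stress list against deep ones. More genes were detected per UMI in high-mt barcodes: after thinning to 2000 non-mitochondrial UMIs the median was 1070 genes (quartiles 993 and 1141) in 425 high-mt barcodes, 2 having too few UMIs, and 971 (915 and 1028) in 1208 low-mt barcodes. Without thinning the order was the opposite, 2850 and 5299 genes.

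The same split was applied to the LApc and LApcL libraries, which the rule had not used. In LApc, 295 of 2456 deep barcodes were over 20% (12.01%, 10.8 to 13.4%), and in LApcL 259 of 2190 (11.8%, 10.5 to 13.3%). In LApc, 552 of 9167 genes were at least 2-fold higher (6.02%) and 608 lower (6.63%), and in LApcL 327 of 9000 were higher (3.63%) and 594 lower (6.6%). Of all genes tested, 52.4% were above 0 in LApc and 48.2% in LApcL. Of the 1127 genes past 2-fold higher in WT, 914 were tested in LApc and 876 of these were above 0 there, 275 past 2-fold, which is 24.4% of the WT set. In LApcL 854 of 901 were above 0 and 195 past 2-fold. Of the 271 lower genes, 244 of 245 tested in LApc and 241 of 243 in LApcL were below 0.

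List medians in the other libraries are set beside all-gene medians of 0.04 in LApc and -0.03 in LApcL, against 0.28 in WT. The 4 ribosomal RNA loci had medians of 2.77 in LApc and 2.56 in LApcL, nuclear oxidative phosphorylation genes -0.59 in both and nuclear-retained RNAs 1.07 and 0.72. Malat1 stood at 15714 and 37291 CPM in LApc and at 8669 and 17973 CPM in LApcL. Cytosolic ribosomal protein genes had medians of -0.27 and -0.19, against -0.58 in WT. The integrated stress response list had medians of 0.14 in LApc and -0.21 in LApcL, with Atf4 at 245 and 229 CPM and at 160 and 150 CPM. In LApc, 8 of 12 genes of p53 and apoptosis were higher, with a median of 0.60, and in LApcL 5 of 12, with a median of -0.17. Whether the libraries differ in these medians was not tested, since each genotype had 1 library.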

How the data were processed

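The authors made droplet-based 10x Chromium 3′ libraries and deposited, per library, whole-number counts of UMIs per gene and barcode with no normalisation, on mm10. The file headers name Cell Ranger 6.0.1 and the processing notes Cell Ranger 2.1.1. The WT library held 87185429 UMIs, LApc 118867221 and LApcL 112057783. Of the deep WT barcodes, 10 that shared their string with another library were left out.

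From these counts, UMIs were summed over the barcodes of a group and divided by the total without mt- genes. A symbol with several IDs took the ID with most UMIs. Genes needed 10 CPM in 1 group, and 2-fold was the limit for a call. Exact 95% intervals were taken from the Poisson distribution (levels), the binomial given the sum of both counts (ratios) and Clopper-Pearson (shares). They cover counting error only. With 1 library per genotype no test was run. Genes named are members of 41 lists, and the 12 highest and 12 lowest ratios among genes with at least 50 CPM. List members under 10 UMIs in both groups together were left out. The members and lists were chosen with earlier results of these data known.

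Clusters were made with scanpy 1.11.5 (2000 variable genes, 20 components, 20 neighbours, Leiden resolution 0.5) and named from at least 3 markers among the top 50 genes. Scrublet's automatic threshold marked 4 of 11411 WT barcodes and so did not work, and doublets were kept, except in 1 alternative. Ratios and intervals were tested on simulated data. Transcript lengths and positions came from GENCODE vM21. Scripts used Python 3.11.15, numpy 2.4.6, scipy 1.17.1, pandas 2.3.3 and matplotlib 3.10.9. Alternatives covered the pseudocount, level filter, scaling, depth, mitochondrial limit, doublets and clusters.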

Additional observations from a re-analysis of the deposited data

Results flagged for a closer look

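Results were taken up here where WT moved one way and both other libraries moved the other way, by at least 0.2 on the log2 scale for a list median or 0.5 for a gene. The median log2 ratio of the 8 stem cell genes between high-mt and low-mt barcodes was -0.21 in WT, 0.35 in LApc and 0.36 in LApcL. Within 10000 to 20000 UMIs the WT median was 0.17 over 6 measured genes, 3 higher and 3 lower. At 20000 UMIs and over it was -0.59, and the WT direction was kept in 16 of 17 alternatives. The LApc and LApcL medians are for all depths. Fcgbp, a mucus protein gene of goblet cells, had a log2 ratio of -0.57 in WT (250 and 167 CPM), 1.25 in LApc (47.1 and 113 CPM) and 0.51 in LApcL (21.1 and 30.6 CPM). Neither difference was tested, since each genotype had 1 library.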

How the results depend on the processing

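No paired analysis was possible because each genotype had 1 library, and for the same reason no replicate could be left out. Of 17 alternatives, 13 were planned and 4 were chosen after seeing the data; 20 of the 24 named genes kept their direction in all of them. Values below are genes at least 2-fold higher and lower (1127 and 271 as reported), then list medians (cytosolic ribosomal protein -0.58, nuclear oxidative phosphorylation -0.63, nuclear-retained 1.16, enterocyte 0.28). Each count is given only where it moved by over 1.5 times. Each median is given only where it left the range from the median of its members' lower bounds to the median of their upper bounds. That range is not an interval for the median itself. Smaller moves of the higher count included 1500 (mean of each barcode's CPM), 1548 (no minimum CPM) and 1586 (without the ribosomal RNA loci). A pseudocount of 10 CPM gave 401 higher and 138 lower, and a minimum of 50 CPM 438 and 169. Median-of-ratios scaling, which lowers every log2 ratio by about 0.28, gave 480 and 716, with ribosomal -0.88, oxidative phosphorylation -0.92, nuclear-retained 0.87 and enterocyte -0.015, a reversal. The mean of each barcode's CPM gave 520 lower, with -0.78, -0.76, 1.35 and 0.22 in the same order. At least 10000 non-mitochondrial UMIs gave 563 and 97, with -0.37, -0.39 and 0.93 for the first 3 lists. At least 20000 UMIs gave 441 and 95, with -0.31, -0.28, 0.85 and 0.40. A mitochondrial limit of 10% gave 34 and 89, with ribosomal -0.12, oxidative phosphorylation 0.0152, a reversal, nuclear-retained 0.50 and enterocyte 0.48, and a limit of 30% gave 1756 and 638, with -0.88, -0.88, 1.43 and 0.15. Without barcodes over 50%, ribosomal was -0.53 and nuclear-retained 1.04. Without the top and bottom 1% of genes detected, nuclear-retained was 1.08 and enterocyte 0.12. Without the highest Scrublet scores (87 high-mt and 129 low-mt barcodes), ribosomal was -0.66, nuclear-retained 1.29 and Gip 0.71, a reversal. Weighting both groups to the low group's mix of clusters with at least 15 barcodes of each gave 235 and 56, with -0.23, -0.29, 0.81 and 0.11. This setting left the enteroendocrine-like and goblet-like clusters out of both groups, and Gip (1.29) and Cck (1.13) reversed. Of the added alternatives, 10000 to 20000 UMIs in both groups gave 572 lower, ribosomal -0.69, nuclear-retained 0.91 and Gip reversed at 0.95. CPM without the ribosomal RNA loci gave 163 lower, with -0.45, -0.50, 1.30 and 0.41. Without the enteroendocrine-like and goblet-like clusters, the enteroendocrine median (0.53), Gcg (0.83), Gip (1.12), Cck (1.30) and Zg16 (0.75) reversed. Without the cluster with most high-mt barcodes, 717 and 116 genes passed, with ribosomal -0.43, oxidative phosphorylation -0.44 and nuclear-retained 1.05. Where a value moved, the cause was not tested. High-mt barcodes held 4444667 non-mitochondrial UMIs, so genes near 10 CPM rest on few UMIs there.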
